A study of Mus musculus with 12 samples.

Results

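The genes described here are 10 structural genes of the smooth muscle and myofibroblast contractile apparatus: Acta2, Actg2, Tagln, Cnn1, Cald1, Tpm1, Tpm2, Myl9, Myh11 and Des. They were chosen by name as rows of the wild-type (WT) and knockout (KO) tables of RNA-seq read counts per gene, so they are 10 of the 49315 gene identifiers, and all 10 were among the 17416 genes with enough counts to be tested. RNA was measured in primary mouse adult fibroblasts (MAFs), cultured from the ears of adult female C57BL/6 WT mice and of Bmal1 -/- mice, which lack the core circadian clock activator BMAL1. WT control and KO control cells were sham irradiated (0 Gy), and WT senescent and KO senescent cells received 20 Gy of X-rays, a dose used to drive the cells into permanent growth arrest. Per the study's methods, irradiated cells were kept in culture for weeks after irradiation. No such time is stated for control cells, so a difference in time in culture cannot be told apart from irradiation. Cells of all 4 groups were given 100 nM dexamethasone, a glucocorticoid that sets the clocks of cultured cells to a common phase. They were collected 12 h after this synchronisation, with 3 libraries in each group. Nothing in the labels says whether the 3 libraries of a group came from separate animals or cultures, so p-values measure the spread between these libraries, which may be technical.

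Contractile cells pull on their surroundings with filaments of actin and myosin. In smooth muscle the thin filaments carry the actins Acta2 and Actg2, tropomyosins lie along them, and calponin, caldesmon and transgelin bind and steady them. Myosin heavy chain 11 with its regulatory light chain Myl9 supplies the force, and desmin filaments hold the apparatus in place. Fibroblasts that are stretched, wounded or exposed to TGF-beta switch on part of this set and are then called myofibroblasts, for which Acta2 is the standard marker. Many of these genes are driven by serum response factor (SRF) bound to CArG boxes, together with the coactivators myocardin (Myocd) and the myocardin-related factors Mrtfa and Mrtfb, which enter the nucleus when actin is assembled into filaments.

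Because SRF acts through CArG boxes, the promoters of the members were searched, and the stretches that held a searched motif are shown here. RefSeq promoters (GRCm38.p6) were at hand for Acta2, Cnn1, Myl9, Tpm1, Tpm2, Cald1 and Des, which is 7 of the 10 members and 8 promoters, since Cald1 has 2. In the 250 bases before the start, on both strands, a CArG box, a CACGTG E-box (the sequence that BMAL1 and its partner CLOCK bind), the AP-1 sites TGACTCA and TGAGTCA, which are reverse complements of each other, and a TATAAA box were sought. The CArG box was sought in the strict form CCWWWWWWGG, with W for A or T, so variants with a G or C in the core could not match. The searched motifs do not overlap one another in the lines below, where they stand in capitals within 40 bases on either side.
Myl9, chr2:156775263-156775352, plus strand: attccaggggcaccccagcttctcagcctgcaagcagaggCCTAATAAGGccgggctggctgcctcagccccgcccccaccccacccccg
Cald1, promoter 2, chr6:34709207-34709303, plus strand: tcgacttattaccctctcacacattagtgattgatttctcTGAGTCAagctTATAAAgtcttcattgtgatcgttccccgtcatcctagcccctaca
The capitals in the Myl9 line mark a CArG box, 161 to 152 bases before the start. Those in the Cald1 line mark an AP-1 site, 197 to 191 bases before the start, and a TATAAA box, 186 to 181 bases before it. No motif in its searched form lay in the 250 bases of the other 6 promoters. This does not show that they lack a CArG box, since variant boxes were not sought. Of 32851 mouse promoters of this length, 1.47% hold a CArG box, 6.02% the E-box, 4.46% an AP-1 site and 12.4% the TATAAA box. A match describes these letters and not a bound site, and sequence beyond the window was not searched.

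Library totals ran from 23923030 to 31736083 counts. Levels are given in CPM (counts scaled to a common TMM-adjusted library total). A floor of 3 counts was worth 0.0945 to 0.125 CPM on the raw library totals, without the TMM adjustment. Every member lay above 3 counts in all 12 libraries, the lowest being Des with 7. The Bmal1 gene (Arntl in the annotation) checked the labels, with 29.8 to 33.2 CPM in WT control, 35.2 to 37.4 in WT senescent, 11.8 to 15.2 in KO control and 25.3 to 27.5 in KO senescent cells, so KO libraries lay below WT libraries in both states although the transcript was still counted. The WT and KO libraries were deposited as separate tables, and a difference in handling between the tables cannot be told apart from genotype. The floors cover counting error only, since the reads carried no molecular identifiers, while the SEs and 95% intervals below come from the fit and include the spread between libraries.

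The cells carried fibroblast markers at high levels. The summed level of 8 fibroblast markers, Col1a1 and Vim among them, was 19906 to 20701 CPM in WT control cells, 9579 to 9966 in WT senescent, 24829 to 26189 in KO control and 11495 to 11891 in KO senescent cells. In WT cells 4 of the 8 rose and 4 fell with senescence, in KO cells 2 rose and 5 fell, and KO senescent cells had 3 higher and 2 lower than WT senescent cells. Mean Col1a1 fell from 7323 to 1750 CPM with senescence in WT cells, while mean Dcn rose from 28.9 to 298.9 CPM. In KO cells Col1a1 fell from 9326 to 2955 CPM and Dcn rose from 25.0 to 272.1 CPM. In bulk RNA, fewer cells of a type and less RNA per cell cannot be told apart.

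The members differed by orders of magnitude in level. To compare genes, levels were divided by the length of the union of all annotated exons of a gene. This union can be longer than the transcripts that a cell makes, so the order of genes with several spliced forms is uncertain. By this measure Acta2 stood at 637.9 ± 39.3 CPM per kb in WT control cells (SD, n = 3), Tagln at 219.3 ± 14.9, Tpm1 at 120.0 ± 12.8, Tpm2 at 105.1 ± 6.61, Cald1 at 101.2 ± 5.55 and Myl9 at 84.7 ± 2.89. The libraries of Tpm2 overlapped those of Tpm1 and of Cald1 in level per kb, while every Tpm1 library (at least 108.0 CPM per kb) lay above every Cald1 library (at most 107.4). Without division by length the order of these was reversed, with mean Cald1 at 1218.6 CPM and mean Tpm1 at 778.3 CPM. Cnn1 was lower at 16.6 ± 0.423 CPM per kb, and the markers of fully differentiated smooth muscle were scarce, with Actg2 at 3.08 ± 0.337, Myh11 at 0.244 ± 0.0297 and Des at 0.0855 ± 0.0103. In KO senescent cells Acta2 (652.7 ± 26.1) and Tagln (257.9 ± 11.4) still led, Cald1 came next at 172.7 ± 2.57, and Myh11 reached 2.36 ± 0.571 CPM per kb.

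Within the control groups 1 library tended to lead. WT control replicate 3 was the highest of its group for 8 members (Acta2, Tagln, Cnn1, Myl9, Tpm1, Tpm2, Actg2 and Cald1), KO control replicate 1 was the highest of its group for the same 8, and KO control replicate 2 was the lowest of its group for 8 members. Where a member's result changes side of the threshold without 1 library, the libraries are named beside it.

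**Figure D1:**
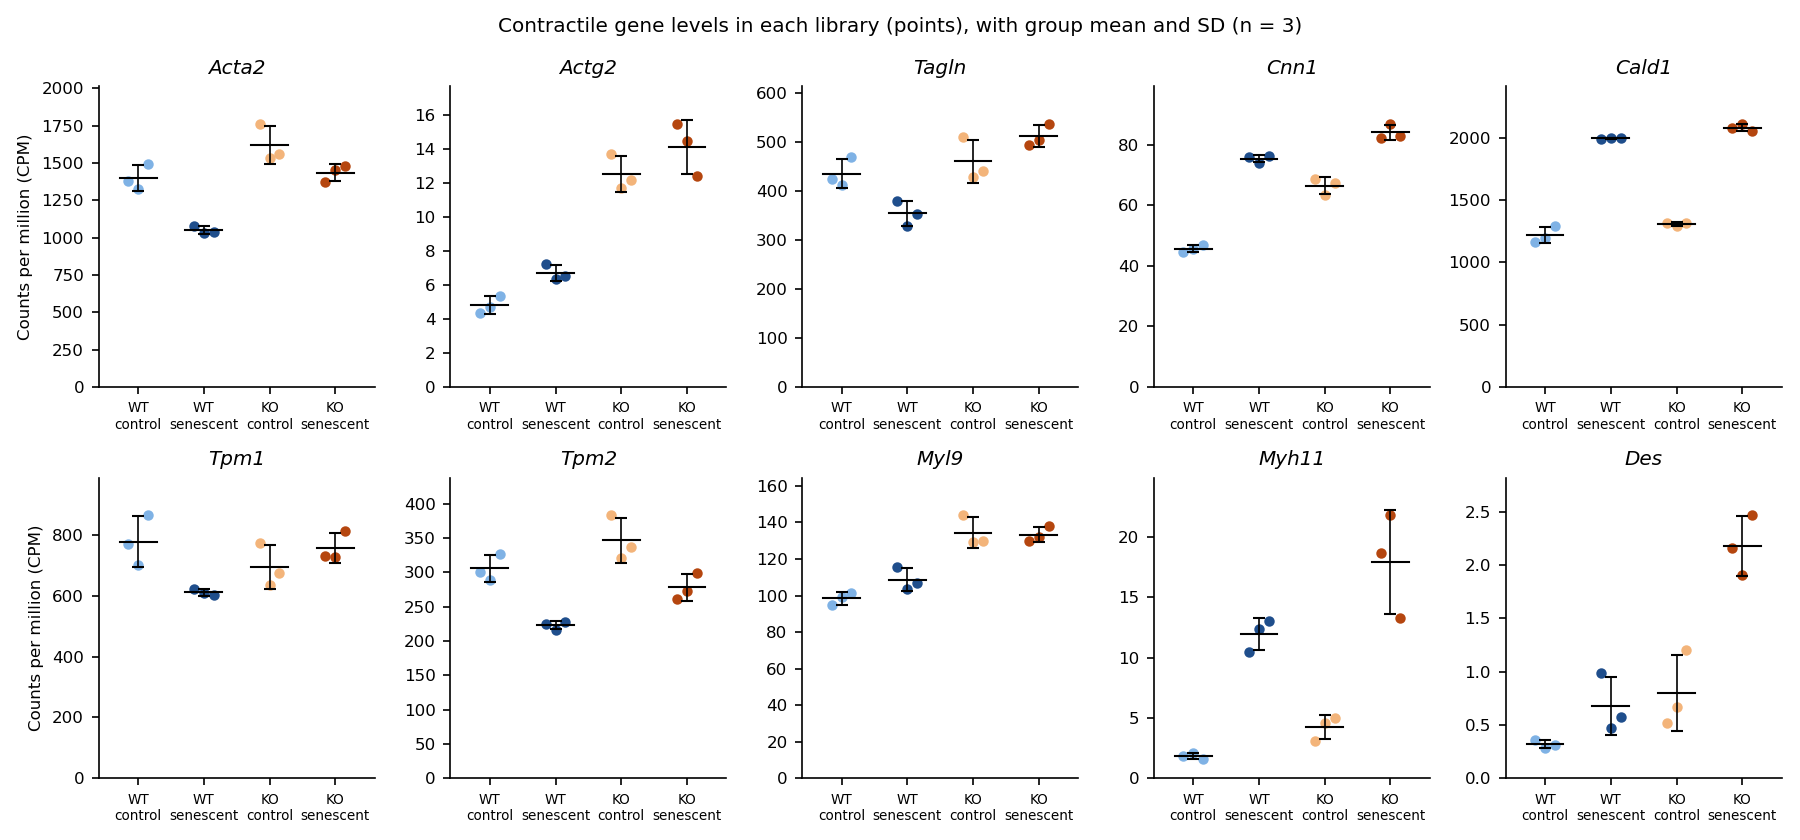
Level of each member in CPM (vertical axis, linear and starting at 0) in each of the 12 libraries (points) by group, with the group mean (wide bar) and SD (error bar, n = 3). Acta2, Tagln, Tpm1 and Tpm2 are lower and Cnn1, Cald1 and Myh11 higher in WT senescent than in WT control cells, and every KO senescent library lies above every WT senescent library for all 10 genes.

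The first question was how the members change when WT fibroblasts become senescent. The actin Acta2, transgelin and both tropomyosins fell, while calponin, caldesmon, Myl9, Actg2, Myh11 and Des rose. In the fit over all genes, 6 of the 10 members passed an adjusted p of 0.05 in the upward direction, where 29.2% of all tested genes did, and 4 passed downward, where 27.0% did. Called with a log2 fold change over 1 in size as well, 2 were higher (11.6% of all genes) and 0 were lower (5.90%), and the median log2 fold change of the members was 0.32 against 0.02 over all genes.

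Among the actins, Acta2 (ENSMUSG00000035783, chr19:34241090-34255590, minus strand), the alpha smooth muscle actin, stood at 1382, 1326 and 1495 CPM in WT control and at 1078, 1029 and 1036 CPM in WT senescent libraries. The groups did not overlap, and the log2 fold change was -0.42 (SE 0.06, adjusted p = 2.77e-06). Actg2 (ENSMUSG00000059430, chr6:83512905-83536265, minus strand), the enteric gamma actin, went the other way, from 4.34, 4.68 and 5.37 to 7.25, 6.36 and 6.52 CPM, without overlap. Its log2 fold change was 0.49 (SE 0.13, adjusted p = 0.00329), from 108 to 119 counts in the control and 169 to 213 counts in the senescent libraries. Actin genes are near-identical in their coding sequence and only uniquely mapped reads were counted, so the split of reads among actins is uncertain, and the same holds for tropomyosins.

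Of the proteins that bind the thin filament, Tagln (ENSMUSG00000032085, chr9:45929619-45936058, minus strand) went from 425, 413 and 469 CPM to 381, 329.9 and 354 CPM, all senescent libraries below all controls. The log2 fold change was -0.30 (SE 0.07, adjusted p = 0.00111), and with library totals in place of TMM scaling it was -0.13 (adjusted p = 0.111). Tagln overlaps Pcsk7 and Gm48529 on the other strand, and the strand setting of the counting is not given in the sources used here, so its reads could include theirs. Cnn1 (ENSMUSG00000001349, chr9:22099216-22109630, plus strand), calponin 1, rose from 44.5, 45.4 and 46.8 CPM to 75.9, 74.0 and 76.3 CPM. That is 1.66-fold (log2 fold change 0.73, SE 0.05, adjusted p = 1.87e-10), with no overlap between the groups. Cald1 (ENSMUSG00000029761, chr6:34598500-34775473, plus strand), the caldesmon gene, which is also spliced into a non-muscle form, rose 1.64-fold, from 1166, 1196 and 1294 CPM to 1991, 1993 and 1998.5 CPM. The coefficient of variation of its senescent libraries was 0.192%, and the log2 fold change was 0.71 (SE 0.05, adjusted p = 3.82e-11).

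Both tropomyosins fell. Tpm1 (ENSMUSG00000032366, chr9:67022590-67049406, minus strand) stood at 769.7, 700.1 and 865 CPM in control and at 622, 609 and 602 CPM in senescent libraries. The control libraries were the more spread, and the log2 fold change was -0.35 (SE 0.08, adjusted p = 0.000965). Tpm2 (ENSMUSG00000028464, chr4:43514711-43523765, minus strand) went from 301, 289 and 327 CPM to 224, 216 and 228 CPM, a log2 fold change of -0.46 (SE 0.07, adjusted p = 5.57e-06).

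The myosin genes rose. Myl9 (ENSMUSG00000067818, chr2:156775420-156781658, plus strand), the regulatory light chain, was at 94.8, 99.1 and 101 CPM in control and 116, 104 and 107 CPM in senescent libraries. The difference was small (log2 fold change 0.14, SE 0.06, adjusted p = 0.0362) and missed the threshold when WT control replicate 1, WT control replicate 2, WT senescent replicate 1 or WT senescent replicate 3 was left out, the adjusted p then lying between 0.0598 and 0.209. Myh11 (ENSMUSG00000018830, chr16:14194535-14291372, minus strand), the smooth muscle heavy chain, showed the widest change of the 10, from 1.85, 2.08 and 1.63 CPM to 10.5, 12.4 and 13.0 CPM. It rose 6.44-fold (log2 fold change 2.69, SE 0.21, adjusted p = 3.93e-09), from 36 to 51 counts in the control to 310 to 368 counts in the senescent libraries.

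Des (ENSMUSG00000026208, chr1:75360329-75368579, plus strand), the muscle intermediate filament, stood at 0.362, 0.285 and 0.316 CPM in control and at 0.987, 0.471 and 0.579 CPM in senescent libraries. These levels rest on 7 to 9 and 14 to 29 counts. The log2 fold change of 1.07 (SE 0.42, adjusted p = 0.0369) missed the threshold without WT senescent replicate 1 (log2 fold change 0.70, adjusted p = 0.221) or without WT control replicate 1, 2 or 3 (adjusted p from 0.0592 to 0.0956). Des overlaps Gm15179 on the other strand. Without Des in the count, Myh11 was the remaining member called higher.

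The same comparison in KO cells asks whether the members change with senescence when BMAL1 is absent. Myh11, Des, Cald1 and Cnn1 rose again and Acta2 and Tpm2 fell again, so 4 members passed upward (28.5% of all genes) and 2 downward (28.6%), with 2 called higher (11.2%) and 0 called lower (7.58%). Tagln, Tpm1, Myl9 and Actg2 did not pass. The median log2 fold change of the members was 0.17 against 0.00 over all genes.

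Myh11 went from 3.12, 4.58 and 4.98 CPM in KO control to 18.7, 21.8 and 13.3 CPM in KO senescent libraries, 4.24-fold (log2 fold change 2.08, SE 0.18, adjusted p = 1.96e-08). Des went from 0.52, 0.673 and 1.20 to 2.16, 1.91 and 2.47 CPM, on 13 to 28 and 54 to 73 counts, with a log2 fold change of 1.46 (SE 0.34, adjusted p = 0.000852). Neither gene's groups overlapped. Cald1 rose 1.59-fold, from 1318, 1287 and 1311 CPM to 2077, 2112 and 2050.3 CPM (log2 fold change 0.67, SE 0.05, adjusted p = 8.6e-11). Cnn1 rose 1.27-fold, from 68.6, 63.4 and 67.4 CPM to 82.4, 87.0 and 82.8 CPM (log2 fold change 0.34, SE 0.05, adjusted p = 8.97e-06). Both genes separated fully by group.

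Acta2 in KO cells was at 1763, 1530.7 and 1559.5 CPM in control and at 1369.5, 1449.7 and 1480.5 CPM in senescent libraries. The decrease of 0.17 on the log2 scale (SE 0.06, adjusted p = 0.0138) was under the threshold in size of effect, and it missed the p threshold without replicate 1 of KO control (adjusted p = 0.0872) or of KO senescent cells (adjusted p = 0.08), and with library totals in place of TMM scaling (log2 fold change -0.02, adjusted p = 0.758). Tpm2 fell from 383, 321 and 337 CPM to 261, 273 and 299.7 CPM (log2 fold change -0.32, SE 0.07, adjusted p = 0.000308), again with no overlap.

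The remaining 4 members overlapped between KO control and KO senescent libraries. Tagln was at 511.5, 429 and 442 CPM against 495, 505 and 538 CPM, a log2 fold change of 0.15 (adjusted p = 0.0634), which passed without KO control replicate 1 (0.23, adjusted p = 0.00387) or KO senescent replicate 1 (adjusted p = 0.0476) and with library totals (0.31, adjusted p = 0.000553). It also passed as higher with DESeq2 (0.17, adjusted p = 0.0386), with its size factors (adjusted p = 0.0399), with no count filter (adjusted p = 0.049), with at least 1 CPM in 3 libraries (adjusted p = 0.0215) and with the replicate block over all libraries (adjusted p = 0.0347). Tpm1 was at 774, 635 and 673 CPM against 729, 727 and 813 CPM (log2 fold change 0.12, adjusted p = 0.182), and passed without KO control replicate 1 (0.21, adjusted p = 0.0196) and with library totals (0.28, adjusted p = 0.00374). These are the KO control libraries in which replicate 1 was the highest. Myl9 was at 144, 129 and 129.7 CPM against 130.1, 132 and 138 CPM, with a log2 fold change of -0.01 and a 95% interval from -0.12 to 0.10, whose sign turned under several settings. Actg2 was at 13.7, 11.7 and 12.2 CPM against 15.5, 14.5 and 12.4 CPM (log2 fold change 0.18, 95% interval -0.05 to 0.40, adjusted p = 0.197), and passed with library totals (0.33, adjusted p = 0.0159).

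**Figure D2:**
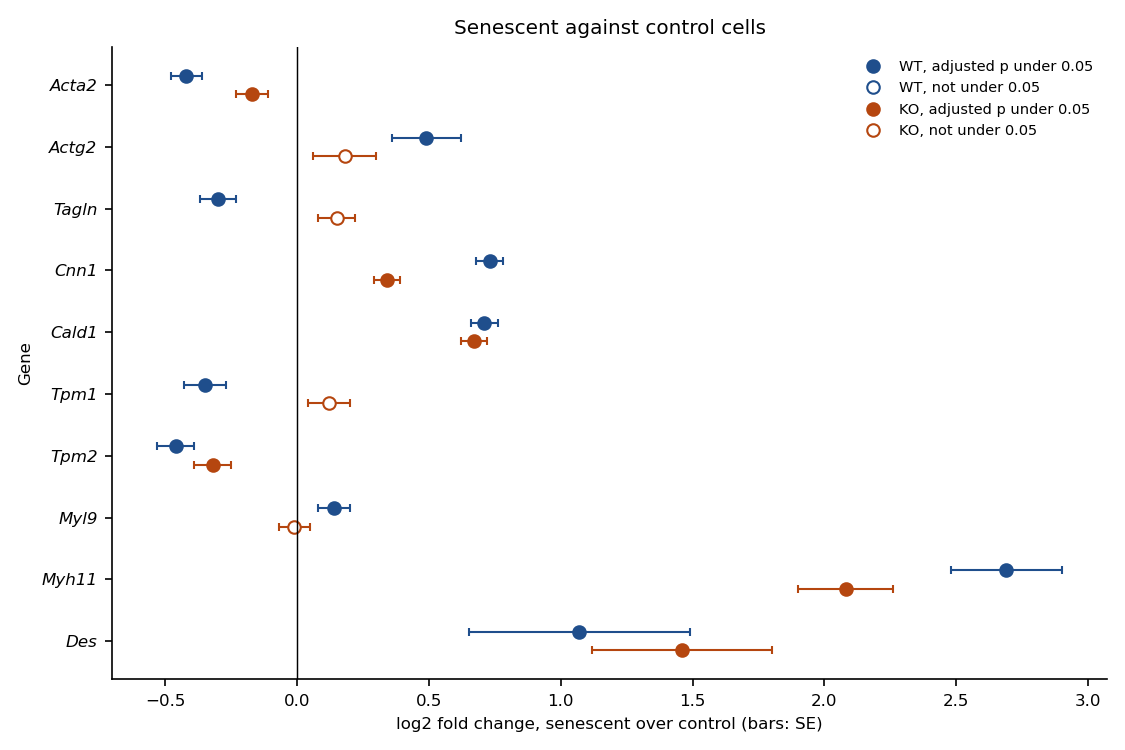
Log2 fold change of senescent over control cells (horizontal axis) for the 10 members in WT (blue) and KO cells (orange), with bars of 1 SE. Filled points have an adjusted p under 0.05. Acta2, Tagln, Tpm1 and Tpm2 lie left of 0 in WT cells, while in KO cells Tagln and Tpm1 lie right of it with open points. Myh11 is farthest right, at 2.69 in WT and 2.08 in KO cells.

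A direct test of whether the senescence change differs with genotype was made with the interaction term, the KO change less the WT change. It passed for 3 members in the positive direction (9.24% of all genes) and 1 in the negative (11.7%), with 0 called in either direction, where 1.15% and 2.51% of all genes were called, and the median over the members was 0.05 against -0.03. At an unadjusted p under 0.05 in edgeR's test, whatever the size, 3 were positive and 2 negative, and the share of all genes at this looser threshold was not counted. At the stricter threshold, an adjusted p under 0.05 with a log2 fold change over 1 in size, DESeq2 called 0 in either direction. The abundant genes Tagln and Tpm1, which fell in WT cells, had the widest interactions of those that passed. The interaction was 0.45 for Tagln (SE 0.10, adjusted p = 0.00281) and 0.47 for Tpm1 (SE 0.11, adjusted p = 0.00547). Both passed in all 12 fits that left out 1 library. For Cnn1, which rose less in KO than in WT cells, it was -0.39 (SE 0.07, adjusted p = 0.000876), and it too passed in all 12. For Acta2 it was 0.24 (SE 0.08, adjusted p = 0.0391), and this was lost in 9 of the 12 fits, those that left out any WT senescent replicate, replicate 1 or 3 of WT control, or replicate 2 or 3 of either KO group, with adjusted p from 0.0545 to 0.127. Without KO control replicate 1 it was 0.31 (adjusted p = 0.00356).

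For the other 6 members the interaction missed the threshold. It was -0.04 for Cald1, with a 95% interval from -0.17 to 0.09, and 0.14 for Tpm2 (-0.05 to 0.32). It was -0.16 for Myl9 (-0.31 to 0.00), -0.31 for Actg2 (-0.65 to 0.03) and 0.39 for Des (-0.71 to 1.49). For Myh11 the interaction of -0.60 had an interval from -1.16 to -0.05 and an adjusted p of 0.146, which fell to 0.0318 without KO control replicate 1 and to 0.0451 without KO senescent replicate 2.

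The genotypes were also compared within each state. These comparisons use the same libraries as those above. In control cells 6 members were higher in KO than in WT cells (8.07% of all genes passed upward) and 0 were lower (4.96%), with 3 called higher (1.36%) and 0 called lower (1.18%). In senescent cells 9 were higher (11.9%) and 0 lower (11.8%), with 2 called higher (1.29%) and 0 called lower (2.19%). The median log2 fold change of the members, KO over WT, was 0.33 in control and 0.39 in senescent cells, against 0.01 and -0.02 over all genes. For 6 members in control cells and for all 10 in senescent cells every KO library lay above every WT library, which was so for 15.6% and 21.0% of all genes.

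At an unadjusted p under 0.05 in edgeR's test, whatever the fold, 1 member was lower in KO control cells (Tpm1) and 0 were lower in KO senescent cells. The share of all genes at this looser threshold was not counted. With an adjusted p under 0.05 and a log2 fold change over 1 in size, DESeq2 called 0 members lower in either state.

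The scarce actin Actg2 was called higher in both states. Its KO levels were 2.60-fold higher in control cells (log2 fold change 1.38, SE 0.13, adjusted p = 1.33e-07) and 2.10-fold higher in senescent cells (1.07, SE 0.12, adjusted p = 1.48e-06). Acta2 was 1.15-fold higher in KO control cells (0.21, SE 0.06, adjusted p = 0.0201), a result lost when WT control replicate 1, WT control replicate 2 or KO control replicate 1 was left out (adjusted p from 0.087 to 0.0873), and 1.37-fold higher in KO senescent cells (0.45, SE 0.06, adjusted p = 8.15e-06). Both actins thus lay higher in KO cells in senescence in all 12 leave-one-out fits.

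Cnn1 and Myl9 were raised in KO control cells. The log2 fold change was 0.55 for Cnn1 (SE 0.05, adjusted p = 3.37e-07) and 0.45 for Myl9 (SE 0.06, adjusted p = 1.16e-05). In senescent cells Myl9 was still 1.22-fold higher (0.29, adjusted p = 0.000606). Cnn1 was 1.12-fold higher (0.16, adjusted p = 0.0297), which missed the threshold without KO senescent replicate 2 or any WT senescent replicate (adjusted p from 0.0701 to 0.122) and with library totals (0.12, adjusted p = 0.0737).

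Tagln, Tpm1 and Tpm2 did not pass in control cells. Tagln was at 0.08 (adjusted p = 0.508), Tpm1 at -0.17 (adjusted p = 0.184) and Tpm2 at 0.18 (adjusted p = 0.075). Tpm1 passed as lower without KO control replicate 1 (-0.25, adjusted p = 0.0232) or WT control replicate 2 (-0.23, adjusted p = 0.0486), and Tpm2 as higher without WT control replicate 3 (adjusted p = 0.028), KO control replicate 2 (0.04) or KO senescent replicate 3 (0.0447). In senescent cells all 3 were higher in KO libraries: Tagln 1.45-fold (0.53, SE 0.07, adjusted p = 1.32e-05), Tpm1 1.24-fold (0.31, SE 0.08, adjusted p = 0.00746) and Tpm2 1.25-fold (0.32, SE 0.07, adjusted p = 0.00123).

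Myh11 was 2.27-fold higher in KO control cells (1.19, SE 0.23, adjusted p = 0.00163) and higher in KO senescent cells too (0.58, SE 0.17, adjusted p = 0.0161). The senescent difference was lost when replicate 1 of either senescent group or KO senescent replicate 2 was left out (adjusted p from 0.0523 to 0.0891). Des was 3.19-fold higher in KO senescent cells (1.67, SE 0.34, adjusted p = 0.000924). In control cells its difference of 1.29 (SE 0.42, adjusted p = 0.0481) was lost in 9 of 12 fits without 1 library (adjusted p from 0.0534 to 0.252), which left out any replicate of WT control or KO senescent cells, replicate 2 or 3 of KO control or replicate 3 of WT senescent cells, with the lowest value without KO control replicate 3 (0.90). Cald1 did not pass in either state, at 0.10 in control (95% interval 0.01 to 0.19, adjusted p = 0.179) and 0.06 in senescent cells (-0.03 to 0.15, adjusted p = 0.382). It passed in control cells without WT control replicate 3 (0.15, adjusted p = 0.0389).

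**Figure D3:**
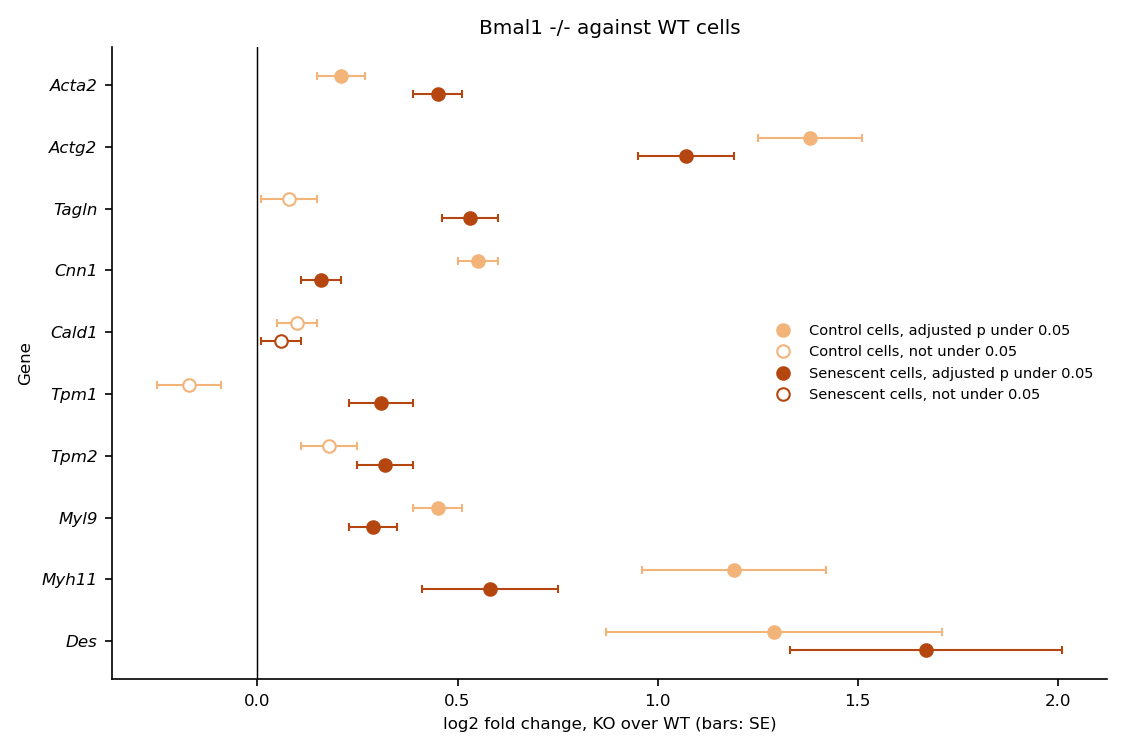
Log2 fold change of KO over WT cells (horizontal axis) for the 10 members in control cells (light orange) and senescent cells (dark orange), with bars of 1 SE. Filled points have an adjusted p under 0.05. All 10 senescent points lie right of 0, from 0.06 for Cald1 to 1.67 for Des, and Tpm1 in control cells is the point left of 0, at -0.17.

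The share of a smooth muscle gene within its protein family does not depend on how libraries are scaled against each other, so it was taken in each library from CPM per kb. Acta2 made up 26.0 ± 0.0708% of the summed level of 6 actin genes in WT control cells and 26.1 ± 0.487% in WT senescent cells (SD, n = 3). The share was level although its CPM fell, and the non-muscle actins Actb (log2 fold change -0.38, adjusted p = 6.51e-05) and Actg1 (-0.45, adjusted p = 4.39e-06) fell too. In KO cells Acta2 made up 30.6 ± 0.557% in control and 28.9 ± 1.14% in senescent cells, and the lowest KO library (28.1%) lay above the highest WT library (26.5%). Without division by length the 4 shares were 22.6%, 22.6%, 26.8% and 25.2%.

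Cnn1 rose as a share of the 3 calponin genes, from 5.58 ± 0.0903% to 7.87 ± 0.206% in WT and from 7.18 ± 0.185% to 8.58 ± 0.262% in KO cells. Myh11 was a minor myosin heavy chain beside Myh9, Myh10 and Myh14 in every library. It was 0.116 ± 0.0203% of the 4 genes in WT control, 0.669 ± 0.0684% in WT senescent, 0.258 ± 0.0598% in KO control and 1.01 ± 0.201% in KO senescent cells. Tpm1 and Tpm2 together made up 27.5 ± 0.739% of the 4 tropomyosin genes in WT control and 29.3 ± 0.32% in WT senescent cells, and 26.9 ± 0.909% and 28.3 ± 0.581% in KO cells, so that their share did not fall as their CPM in WT cells did. Without division by length the tropomyosin shares were 38.6% and 41.2% in WT and 37.4% and 40.3% in KO cells, control first. No test was run on the shares.

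**Figure D4:**
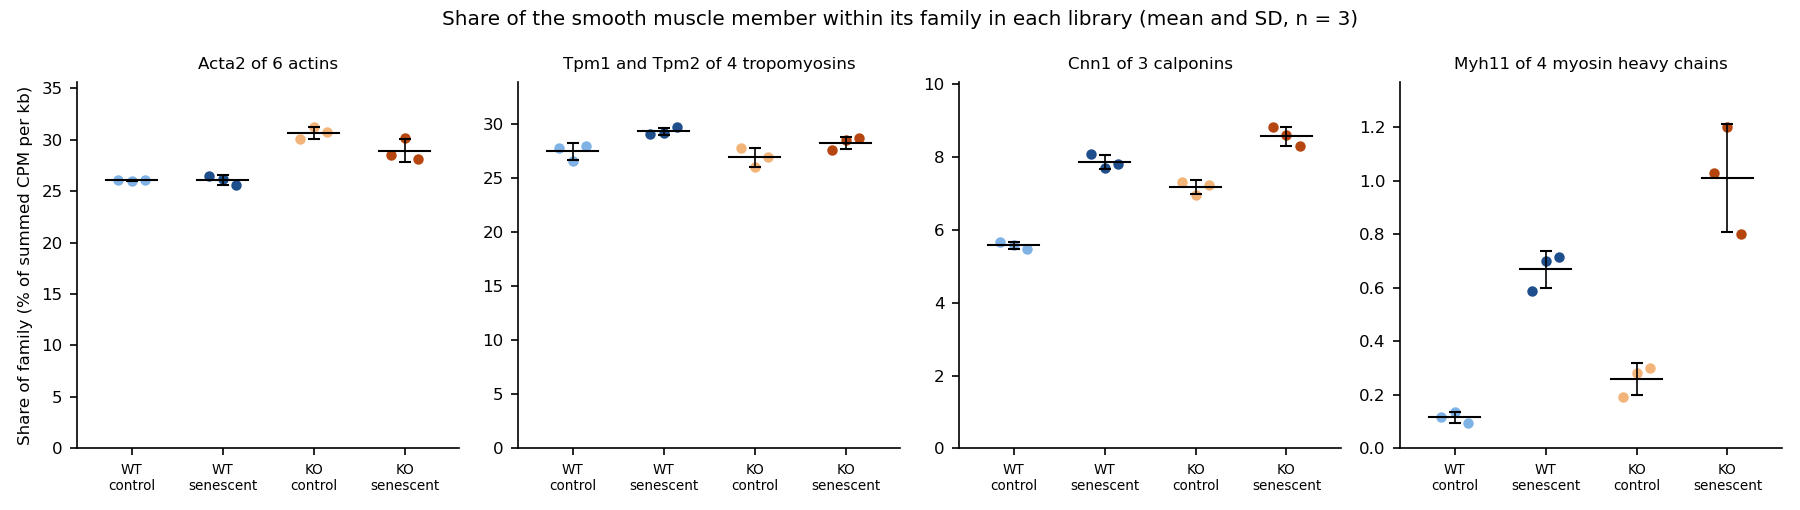
Share of Acta2 among 6 actins, of Tpm1 and Tpm2 among 4 tropomyosins, of Cnn1 among 3 calponins and of Myh11 among 4 myosin heavy chains (vertical axes, percent of the family's summed CPM per kb, starting at 0) in each library (points), with the group mean and SD (n = 3). The Acta2 share is higher in all KO than in all WT libraries, and the Cnn1 and Myh11 shares are higher in senescent than in control cells of the same genotype.

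Other genes of the contractile pathway were read from fixed lists. Of 20 further smooth muscle genes, 19 were tested. In WT cells 13 rose and 4 fell with senescence, with 8 called higher and 0 called lower, and in KO cells 12 rose and 3 fell, with 7 called higher and 0 lower. Over all genes tested, 29.2% rose and 27.0% fell in WT cells, with 11.6% called higher and 5.90% called lower. In KO cells 28.5% of all genes rose and 28.6% fell, with 11.2% called higher and 7.58% called lower. The list's median log2 fold change was 0.38 in WT and 0.72 in KO cells. The 0 called lower in WT cells rests on Tnc, the matrix protein tenascin C, whose level fell to 0.501 of that in control cells (adjusted p = 2.79e-12), just short of the call. DESeq2 called it lower (-1.01), as did edgeR with DESeq2's size factors, with no count filter, with only the groups compared, and without WT control replicate 1, WT senescent replicate 1 or 3, or any KO control replicate. Lmod1, leiomodin 1, which nucleates actin filaments in smooth muscle, rose in WT cells from a mean of 5.50 to one of 24.2 CPM (log2 fold change 2.14, SE 0.11, adjusted p = 1.07e-12) and in KO cells from 9.88 to 34.8 CPM (1.81, adjusted p = 3.36e-12). It was also higher in KO than in WT cells in control (0.85, adjusted p = 4.29e-05) and in senescence (0.53, adjusted p = 0.000345). Of the 19 tested, 4 were higher and 0 lower in KO than in WT control cells (8.07% and 4.96% of all genes). None of these was called, though Ldb3 was called higher without WT control replicate 3 (1.09). In senescence 6 were higher and 1 lower (11.9% and 11.8%), with 0 called higher and 1 called lower (1.29% and 2.19%). The integrin subunit Itga8 rose by 1.55 in WT (adjusted p = 1.45e-10) and 1.31 in KO cells (adjusted p = 1.44e-09) on the log2 scale, and Sncg, gamma-synuclein, by 1.39 in WT cells (adjusted p = 3.9e-06). Mustn1 had an interaction of 1.16 (SE 0.21, adjusted p = 0.000641), with a change of 1.51 in KO (adjusted p = 3.45e-08) and 0.35 in WT cells (adjusted p = 0.0498), and without WT control replicate 3 the interaction was 0.95 and no longer called. For Pgm5 the interaction was called negative with no count filter (-1.12), with the replicate block over all libraries (-1.09) and without KO control replicate 1 (-1.47), and for Ldb3 without WT control replicate 3 (-1.02). The calls of Pgm5 and Ldb3 as higher with senescence in KO cells were each lost without 1 of the KO libraries, at 0.88 without KO control replicate 1 and 0.96 without KO senescent replicate 2 for Pgm5, and at 0.97 without KO control replicate 2 for Ldb3. The summed CPM of the list was 2796 to 2968 in WT control and 1830.3 to 1924 in WT senescent libraries, and 3361 to 3405 against 2318 to 2566 in KO libraries, of which Tnc alone held a mean of 2046.5, 1024.7, 2417 and 1515.5 CPM. Without Tnc the other 19 genes summed to 833 to 878 CPM in WT control, 847 to 865 in WT senescent, 953 to 969 in KO control and 913 to 981 in KO senescent libraries, so the groups of each genotype overlapped.

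Of 18 non-muscle actomyosin genes, 5 rose and 9 fell in WT cells (1 called in each direction) and 2 rose and 6 fell in KO cells (0 called), with medians of -0.14 and -0.05. Over all genes tested, 29.2% rose and 27.0% fell in WT cells, with 11.6% called higher and 5.90% lower. In KO cells 28.5% of all genes rose and 28.6% fell, with 11.2% called higher and 7.58% lower. Tagln2, the widely expressed relative of Tagln, fell by 1.19 on the log2 scale in WT cells (SE 0.09, adjusted p = 1.94e-08) and by 0.66 in KO cells (adjusted p = 1.13e-05), with an interaction of 0.53 (adjusted p = 0.0074). Myl12b, a non-muscle regulatory light chain, rose by 1.02 in WT cells (SE 0.09, adjusted p = 3.93e-09), and as the 1 gene called higher it fell below the call at 0.99 with only the groups compared, 0.93 without WT control replicate 2 and 0.94 without WT senescent replicate 2. The interaction passed for 6 of the 18 in the positive direction, Actb (0.34, adjusted p = 0.0158) and Actg1 (0.38, adjusted p = 0.00462) among them, and for 3 in the negative. Over all genes the interaction passed for 9.24% in the positive and 11.7% in the negative direction. KO senescent cells had 8 of the 18 higher and 4 lower than WT senescent cells, where 11.9% of all genes were higher and 11.8% lower.

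A list of 24 genes held regulators of the contractile programme and targets of SRF, the myocardin-related factors or YAP. It also held Klf4, Foxo1, Foxo3 and TGF-beta pathway genes, so its counts give no direction for the programme. In WT cells 12 rose and 4 fell with senescence (2 called higher), where 29.2% of all genes rose and 27.0% fell (11.6% called higher). In KO cells 12 rose and 4 fell (4 called higher, Klf4 among them at 1.22), where 28.5% of all genes rose and 28.6% fell (11.2% called higher). With library totals 4 of the 24 were called higher in WT cells, Foxo3 (1.16) and Tgfb2 (1.10) being added. Foxo3 was also called with at least 1 CPM in 3 libraries (1.01), and when the third WT control or the first WT senescent library was left out. Srf itself did not pass in WT (-0.12, adjusted p = 0.152) or KO cells (0.14, adjusted p = 0.102), and was 1.16-fold higher in KO than in WT senescent cells (0.22, adjusted p = 0.0293). Myocd was near the floor, at 0 to 0.505 CPM in all 12 libraries, so no fold is given. Mrtfa fell with senescence in WT (-0.39, adjusted p = 4.84e-05) and KO cells (-0.28, adjusted p = 0.00126) and was higher in KO cells in both states (0.23, adjusted p = 0.0257 in control and 0.35, adjusted p = 0.000752 in senescence). Mrtfb passed in neither genotype (0.08 in WT and -0.19 in KO cells). Tgfb1i1, the adaptor Hic-5, was higher in KO cells in both states (0.23, adjusted p = 0.0099 and 0.29, adjusted p = 0.000782) and did not pass with senescence.

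The LIM-domain gene Fhl1 rose in WT cells from a mean of 13.7 to one of 56.4 CPM (2.04, adjusted p = 8.91e-14) and in KO cells from 21.3 to 70.7 (1.74, adjusted p = 4.04e-13), and Fhl2 rose by 0.49 (adjusted p = 0.00305) and 0.94 (adjusted p = 1.1e-05). In KO cells Fhl2 was also called higher with library totals (1.09), and when replicate 1 of either KO group was left out. The secreted YAP targets moved with senescence too. In WT cells Ccn2 rose from 1367 to 2834 CPM (1.05, adjusted p = 3.08e-10), and in KO cells from 963 to 2512 (1.38, adjusted p = 5.62e-12), with an interaction of 0.33 (adjusted p = 0.0227), was no longer called in WT cells without WT control replicate 1 (1.00), and was lower in KO than in WT control cells (-0.51, adjusted p = 6.55e-05). Ccn1 rose by 0.23 (adjusted p = 0.00163) and 0.63 (adjusted p = 4.14e-09). Ankrd1, an ankyrin-repeat target of YAP, rose in WT cells from 38.2 to 65.9 CPM (0.79, adjusted p = 0.0033) and in KO cells from 32.2 to 140.0 (2.12, adjusted p = 3.62e-06), with an interaction of 1.33 (SE 0.24, adjusted p = 0.00458). Its call as higher in KO than in WT senescence was lost at 0.98 without KO senescent replicate 3.

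By the root mean square distance of centred log2 CPM over the 12 libraries, among the 10946 genes whose mean reached 5 CPM, the profile nearest to that of Acta2 was Lasp1, an actin-binding LIM and SH3 protein, at 0.0307. Fkbp1a (0.0586), Myadm (0.0596), S100a4 (0.0605) and Mrtfa (0.0612) followed. Among the members, Tpm2 ranked 11 from Acta2 (0.0735) and Tagln 143 (0.129), while Cnn1 ranked 8304 (0.446), Cald1 9006 (0.517) and Myh11 10760 (1.39). The values were centred but not scaled, so a gene of like direction with a wider range also ranks far away. Since Acta2, Tagln and the tropomyosins fell in WT senescence while the other members rose, the members held no single profile. These distances are a description over libraries of 4 groups, and Des lay below the level set for this ranking.

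Markers of other cells moved with the same groups, and their part in the results was not tested. Of 8 pericyte and vascular smooth muscle markers 6 were tested, and in each genotype 5 of them rose with senescence and Cspg4 fell. Over all genes tested, 29.2% rose and 27.0% fell in WT cells, and 28.5% and 28.6% in KO cells. The summed level of the list was 616 to 648 CPM in WT control, 535 to 554 in WT senescent, 584 to 651 in KO control and 514 to 559 in KO senescent cells. In WT cells mean Rgs5 went from 1.44 to 5.72 CPM, Notch3 from 6.81 to 22.4, Mcam from 4.66 to 21.1, Abcc9 from 0.202 to 1.82, Pdgfrb from 119.2 to 278.8 and Cspg4 from 501.4 to 213.3 CPM. In KO cells these were, in the same order, 1.47 and 13.5, 11.0 and 19.8, 9.83 and 33.1, 0.0246 and 2.54, 154.2 and 235.3, and 450.9 and 233.3 CPM. Abcc9 had 0 counts in a library of each control group, so no fold is given for it. The other 2 markers were too low to be tested, with Higd1b at group means of at most 0.0301 CPM and Kcnj8 at 0.0286 in WT control, 0.271 in WT senescent, 0.0379 in KO control and 0.37 CPM in KO senescent cells. KO cells had 3 of the 6 higher and 1 lower than WT cells in the control state, Mcam (1.07, adjusted p = 5.71e-07) and Notch3 (0.69, adjusted p = 0.00122) among the higher and Abcc9 the lower, and 2 higher and 1 lower in senescence. Over all genes 8.07% were higher and 4.96% lower in KO cells in the control state, and 11.9% and 11.8% in senescence.

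Markers of cartilage, a tissue that the ear contains, were abundant. The summed level of 7 chondrocyte markers was 7196 to 8885 CPM in WT control, 2039 to 2371 in WT senescent, 4792 to 6497 in KO control and 664 to 775 in KO senescent cells. With senescence 6 of 7 fell in each genotype, where 27.0% of all genes fell in WT and 28.6% in KO cells. In senescence all 7 were lower in KO cells than in WT, where 11.8% of all genes were. The 10 skeletal muscle markers summed to 48.4 to 61.9 CPM in WT control, 21.0 to 24.5 in WT senescent, 26.3 to 36.2 in KO control and 23.2 to 27.1 in KO senescent cells, most of it Acta1, and Myod1, Myog and Mymk were at 0 in every control library. Cardiac markers summed to at most 10.6 CPM, endothelial markers to at most 7.87, keratinocyte markers to at most 16.6 and macrophage markers to at most 14.6 CPM in any library. The 3 keratinocyte markers tested of 4 rose with senescence in both genotypes, where 29.2% of all genes rose in WT and 28.5% in KO cells. Their list summed to at most 5.42 CPM in control and at least 9.70 CPM in senescent libraries.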

How the data were processed

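RNA was sequenced from 12 libraries of primary MAFs, 3 in each of 4 groups (WT control, WT senescent, KO control, KO senescent). Per the labels and the study's methods, the authors trimmed reads with Trimmomatic 0.36, aligned them to GRCm38 with STAR 2.5.2b and counted uniquely mapped exonic reads per gene with featureCounts. The deposited values are raw counts per gene in 1 table for each genotype, and the strand setting and annotation release are not given in the sources used here.

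Groups were taken from the sample titles. Counts of both tables were joined on gene identifier (48970 of 49315 matched GENCODE M21, used for names, positions on GRCm38 and exon length). Exon length was that of the union of all annotated exons of a gene. Genes were filtered with filterByExpr, scaled with TMM and tested with the quasi-likelihood F-test of edgeR 4.0.16 (R 4.3.3, robust, all 12 libraries, 1 mean per group), with Benjamini-Hochberg adjustment over 17416 genes. A gene passed, and is said to have risen or fallen, at an adjusted p under 0.05, and was called if its log2 fold change was also over 1 in size. The SE is the size of the log2 fold change divided by the square root of F, and CPM uses TMM-scaled totals. Raw totals of 23923030 to 31736083 counts put 3 counts at 0.0945 to 0.125 CPM without TMM scaling. The fit was also run on simulated counts, in which equal numbers of genes were raised and lowered in 1 group. In these data more genes were called higher than lower in senescence, so that run does not test the scaling between unlike groups.

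All members are named. Of the other lists, the regulators Srf, Myocd, Mrtfa, Mrtfb, Tgfb1i1, Fhl2, Ccn1, Ccn2 and Ankrd1 are always named, with at most 3 called genes in each direction with a mean of at least 5 CPM for the WT, KO and interaction comparisons, and the 5 profiles nearest to Acta2. Values of Actb, Actg1, Col1a1, Dcn, Rgs5, Notch3, Cspg4, Mcam, Abcc9, Pdgfrb, Higd1b, Kcnj8, Tnc, Foxo3, Tgfb2, Klf4, Pgm5 and Ldb3 are given beside the results they touch and were chosen after their values were seen. Fhl1, Lmod1, Itga8, Sncg, Mustn1, Myl12b and Tagln2 came from the rule. Members and lists were chosen with earlier results of these data known. Alternatives were DESeq2 1.42.0, its size factors, library totals, other count filters, only the groups compared, the replicate number as a block, and leaving out each library. Family shares without division by length and the summed level of further smooth muscle genes without Tnc were added after the data were seen. The promoter search used RefSeq promoters on GRCm38.p6.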

Additional observations from a re-analysis of the deposited data

Results flagged for a closer look

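For 4 members the change with senescence differed between the genotypes by the test of that difference itself, the KO change less the WT change on the log2 scale in edgeR's quasi-likelihood test. It was 0.45 for Tagln (adjusted p = 0.00281), 0.47 for Tpm1 (adjusted p = 0.00547), -0.39 for Cnn1 (adjusted p = 0.000876) and 0.24 for Acta2 (adjusted p = 0.0391). Of all genes tested, 9.24% passed this test in the positive and 11.7% in the negative direction. The Acta2 result was lost in 9 of 12 fits without 1 library and with the replicate block within genotype or state (adjusted p = 0.0724). Tagln and Tpm1 fell in WT cells. In KO cells neither passed, at 0.15 for Tagln (adjusted p = 0.0634) and 0.12 for Tpm1 (adjusted p = 0.182), though both passed as higher with library totals and without KO control replicate 1, and Tagln also by DESeq2 (adjusted p = 0.0386). Cnn1 rose in both genotypes and Acta2 fell in both.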

How the results depend on the processing

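Among the log2 fold changes of the 10 members in the 5 comparisons, 47 of 50 kept direction and side of the threshold with DESeq2's Wald test, 47 with its size factors in edgeR, 48 with at least 1 CPM in 3 libraries, 44 with no count filter and 42 with library totals, which moved the median of all genes by 0.17 in WT and 0.15 in KO senescence. Leaving out each library in turn, 549 of 600 did, 38 lost the threshold, 11 gained it and 2 turned sign. Those that turned sign in any setting were all Myl9 in KO senescence (-0.01), at 0.01 with DESeq2's test and with its size factors, 0.14 with library totals, 0.02 with at least 1 CPM in 3 libraries, 0.0 with only the groups compared and -0.04 to 0.04 without 1 library. With the adjusted p under 0.05 alone, the members higher and lower were 6 and 4 in WT senescence, 4 and 2 in KO senescence, 3 and 1 for the interaction and, for KO over WT, 6 and 0 in control and 9 and 0 in senescent cells. The members called higher in WT senescence were 1 in place of 2 with no count filter and with only the groups compared, and 1 to 2 without 1 library (1 when any WT control replicate or WT senescent replicate 1 was left out), Des being the gene at the threshold. With fewer genes or libraries the estimate of the spread changes by construction, and other causes were not tested.

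No pairing by replicate number was seen, though with so few libraries per group this check cannot exclude shared animals or cultures. Deviations of same-numbered libraries correlated at -0.125 to 0.108 over genes. Of the 6 libraries in a comparison 1 to 3 correlated best with their own number. The replicate block over all libraries kept 48 of 50 results and let Tagln in KO senescence (0.16, adjusted p = 0.0347) and Tpm2 in control cells (0.18, adjusted p = 0.0493) pass. Within genotype or state the replicate block kept 47 of 50, and Acta2's interaction (adjusted p = 0.0724), Myl9 in WT senescence (0.0664) and Des in control cells (0.0677) no longer passed. The number of members called was the same under either block in each direction and comparison, except KO over WT in control cells, where the block within state gave 2 called higher in place of 3. Depth limits the results on Des, which had 7 counts in 2 libraries, and on Myocd, which had 0 in 1 library.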
